A study of Homo sapiens with 25 samples.

Results

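Acetylation of histone H3 at lysine 27 (H3K27ac) was compared between HCT116 cells that express FOXD2 and HCT116 cells that carry an empty vector. The comparison rests on the 4 libraries whose titles name this mark, of 25 libraries in the series, 18 of which have a peak list. HCT116 is an established human colorectal carcinoma line. FOXD2 cells had been transduced with a pSin lentivirus holding the complete FOXD2 coding sequence, and Control cells with the same vector without an insert. Both groups were selected and grown in puromycin at 5 µg/ml, so the resistance gene and viral integration are shared by all 4 libraries. There were 2 libraries in each group. The labels do not say whether these came from separate cultures or whether the stable cells are clonal, so p-values measure only the spread between libraries, which may be technical. Histone marks were precipitated from native chromatin that had been cut with micrococcal nuclease at 2 units/µl, with 2 µg of antibody. In such bulk chromatin, fewer acetylated cells and less acetylation per cell cannot be told apart.

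H3K27ac is placed mainly by the acetyltransferases p300 and CBP and removed by histone deacetylases. It marks promoters and enhancers that are in use, and long stretches of it lie over genes and enhancer clusters that are prominent in a given cell type. H3K4me1 marks enhancers whether or not they are acetylated, and H3K4me3 marks active promoters. FOXD2 is a transcription factor of the forkhead family, which binds DNA through a winged helix domain.

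Acetylation at 6 transcription starts of selected genes was present in both libraries of one group and absent from both libraries of the other. Present meant at least 1 kb covered within 2 kb of the start, at an equal number of peaks per library. The 250 bases before each of these starts are given below from RefSeq (GRCh38.p14), read 5′ to 3′ on the strand of the gene, with every CG pair in capitals because methylation at these pairs accompanies silent promoters. Of 49 genes named for their covered bases or as the expressed factor, 36 had an entry in that table. WNT16 and DKK1 were not among the 49. The listed starts of FOXQ1, SMAD7 and TNFRSF19 were acetylated in FOXD2 cells, and those of WNT16, DKK1 and PDE4B in Control cells.
FOXQ1 (chr6:1311848-1312097, plus strand): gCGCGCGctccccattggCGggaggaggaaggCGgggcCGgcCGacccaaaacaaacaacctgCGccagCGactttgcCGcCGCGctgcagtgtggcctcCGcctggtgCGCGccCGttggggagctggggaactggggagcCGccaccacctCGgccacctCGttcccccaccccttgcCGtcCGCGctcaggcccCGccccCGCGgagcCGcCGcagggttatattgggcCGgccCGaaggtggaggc
SMAD7 (chr18:48942808-48943057, minus strand): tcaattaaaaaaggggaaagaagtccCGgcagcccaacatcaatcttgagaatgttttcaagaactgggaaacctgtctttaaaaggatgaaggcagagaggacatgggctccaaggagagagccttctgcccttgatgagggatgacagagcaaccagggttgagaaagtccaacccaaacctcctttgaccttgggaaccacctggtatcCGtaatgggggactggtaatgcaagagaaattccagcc
TNFRSF19 (chr13:23579110-23579359, plus strand): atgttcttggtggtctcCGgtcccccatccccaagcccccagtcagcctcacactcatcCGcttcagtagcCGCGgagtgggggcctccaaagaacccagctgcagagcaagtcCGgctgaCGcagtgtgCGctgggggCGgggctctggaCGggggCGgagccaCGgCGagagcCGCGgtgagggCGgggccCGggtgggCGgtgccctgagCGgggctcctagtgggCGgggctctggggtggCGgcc
WNT16 (chr7:121328750-121328999, plus strand): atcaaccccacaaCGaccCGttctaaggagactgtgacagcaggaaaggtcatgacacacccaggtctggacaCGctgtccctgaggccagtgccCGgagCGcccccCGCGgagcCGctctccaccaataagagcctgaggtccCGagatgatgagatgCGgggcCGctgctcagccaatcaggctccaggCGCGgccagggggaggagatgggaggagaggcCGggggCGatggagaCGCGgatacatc
DKK1 (chr10:52314031-52314280, plus strand): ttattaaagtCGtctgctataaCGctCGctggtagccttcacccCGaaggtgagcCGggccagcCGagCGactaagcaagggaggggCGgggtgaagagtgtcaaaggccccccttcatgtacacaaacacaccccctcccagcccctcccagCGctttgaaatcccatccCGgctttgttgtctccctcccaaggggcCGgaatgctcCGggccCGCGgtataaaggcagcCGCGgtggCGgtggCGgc
PDE4B (chr1:66354285-66354534, plus strand): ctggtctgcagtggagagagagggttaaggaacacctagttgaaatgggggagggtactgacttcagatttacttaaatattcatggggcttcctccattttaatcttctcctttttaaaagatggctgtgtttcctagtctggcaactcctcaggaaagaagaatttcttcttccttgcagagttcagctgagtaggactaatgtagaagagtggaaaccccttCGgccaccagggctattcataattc
Within 2 kb on either side of the FOXQ1 start, peaks covered 2.96 and 3.57 kb in the FOXD2 libraries, against 0 kb in both Control libraries. The SMAD7 start, which lies inside the gene, had 4.00 and 3.66 kb in FOXD2 cells and 0 kb in both Control libraries. It is not the outermost start of SMAD7, near which both Control libraries did have peaks. Relative to that outer start, a peak ran from -0.93 to -0.091 kb in Control replicate 1 and from -2.043 to -1.334 kb in Control replicate 2. The TNFRSF19 start had 1.24 and 1.62 kb in FOXD2 cells and 0 kb in both Control libraries, although the full list of Control replicate 1 covered 0.794 kb there. All 3 starts were thus outside every peak of the Control lists at equal length. The reverse held at 3 others. The WNT16 start had 0 kb in both FOXD2 libraries, against 2.88 and 2.56 kb in Control cells. The DKK1 start had 0 kb in both FOXD2 libraries, against 1.31 and 3.13 kb in Control cells. DKK1, a secreted Wnt antagonist, is outside the rule for named genes and was chosen after its values were seen. An alternative start inside PDE4B had 0 kb in both FOXD2 libraries, against 1.22 and 2.73 kb in Control cells. The 6 windows were of different composition. FOXQ1 held 29 CG pairs, TNFRSF19 20, DKK1 18 and WNT16 17, whereas SMAD7 held 2 and PDE4B 1, and the median over 22132 windows of protein-coding genes was 16. None of the 6 contained the forkhead motif TGTTTAC (on either strand, the other reading GTAAACA) or the AP-1 motif TGAGTCA (other strand TGACTCA). These motifs were present in 2.45% and 3.45% of all windows. Among windows of genes that gained acetylation, defined further on, 2.82% held the forkhead motif and 4.15% the AP-1 motif, and among the 79 windows of genes that lost it, 1.27% (1 window) and 2.53% (2 windows) did.

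The H3K27ac lists of FOXD2 cells were made of wider peaks. Peaks of 5 kb or more held 16.8% and 17.3% of the covered bases in the FOXD2 lists, against 8.58% and 9.40% in the Control lists. These shares did not overlap, and their means were 17.0% ± 0.357 in FOXD2 cells and 8.99% ± 0.577 in Control cells (SD, n = 2 each; exact permutation test, two-sided p = 0.33, the smallest that 2 libraries against 2 allow). The median peak was 779 and 721 bp wide in FOXD2 cells and 653 and 655 bp in Control cells. At equal list length, described below, it was 779 and 1059 bp in FOXD2 cells and 863 and 659 bp in Control cells, so medians then overlapped while the share in wide peaks did not. The longest peak measured 49018 and 37417 bp in the FOXD2 lists, against 26232 and 26863 bp in the Control lists. At the other end of the range, the shortest peak was 363 and 313 bp in FOXD2 lists and 304 and 317 bp in Control lists.

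The number of peaks followed the library and not the group. The lists held 85122 and 141008 peaks in FOXD2 cells, against 129995 and 85832 in Control cells. Each group therefore had 1 long and 1 short list, and the mean difference of 5151.5 peaks turned negative without FOXD2 replicate 2 (-22791.5) or without Control replicate 2 (-16930.0). Covered bases came to 111 and 171 Mb in FOXD2 cells and to 132 and 89.3 Mb in Control cells, which overlap. Within the long lists FOXD2 cells covered 1.30 times the bases of Control cells, and within the short lists 1.25 times. The read depth of the libraries is not known from the files, so its part in list length was not tested. With each list reduced to its 85122 peaks of smallest q-value (equal list length), the FOXD2 lists covered 111 and 138 Mb and the Control lists 107 and 89.0 Mb, and the groups no longer overlapped. The share of bases in peaks of 5 kb or more was then 16.8% and 21.3% in FOXD2 cells and 10.5% and 9.43% in Control cells.

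**Figure D1:**
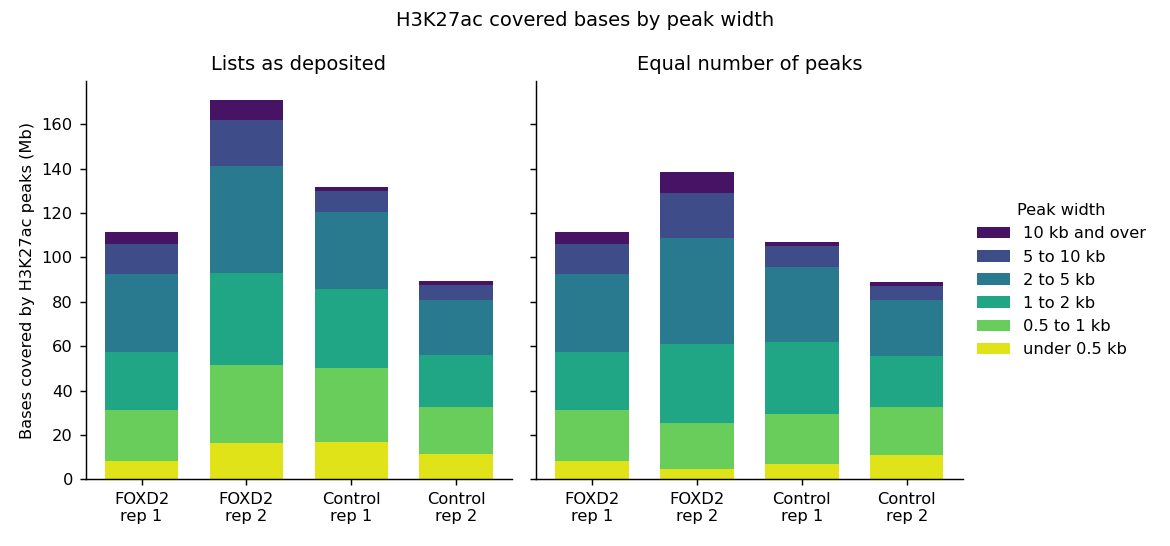
Bases covered by H3K27ac peaks (Mb) in the 2 FOXD2 and 2 Control libraries, stacked by peak width, for the lists as deposited (left) and at 85122 peaks per list (right). The bands for peaks of 5 kb and over are thicker in the FOXD2 bars, where they hold 16.8% and 21.3% of the bases at equal length, against 10.5% and 9.43% in the Control bars.

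Both promoter-near and distal acetylation showed the greater widths. A peak was promoter-near if it came within 2 kb of an annotated transcription start. Peaks of 5 kb or more held 23% and 30.2% of promoter-near bases in FOXD2 cells, against 15% and 13.5% in Control cells. Of distal bases they held 13.0% and 10.6% in FOXD2 cells and 5.38% and 6.75% in Control cells. Neither pair overlapped. By covered bases, the balance between the compartments overlapped between the groups: promoter-near peaks made up 37.6% and 33.8% of covered bases in FOXD2 cells and 33.1% and 39.2% in Control cells. That share was lower in both long lists than in both short ones, and the sign of the mean difference of -0.455 percentage points changed without FOXD2 replicate 2 (1.41) or without Control replicate 2 (2.57). As a share of peaks, promoter-near peaks were 26.4% and 21.8% in FOXD2 cells and 23.5% and 28% in Control cells, which overlap. At equal list length this share was 26.4% and 27.9% in FOXD2 cells and 28.4% and 28.1% in Control cells, a small difference without overlap.

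Joining the 4 lists at equal length gave 138820 regions. Of these, 30357 had a peak in every library and 8302 (5.98%) had a peak in both FOXD2 libraries and in neither Control library, called FOXD2-only. The converse class, Control-only, held 5103 regions (3.68%). Single-library regions were commoner than either class, at 18846 and 15472 in the FOXD2 lists and 15620 and 14922 in the Control lists. Regions held by only 1 FOXD2 and 1 Control library numbered 1976 to 5701 per pair of libraries. The highest count, for FOXD2 replicate 2 with Control replicate 1, exceeded the Control-only class. In the full lists such pairs held 1387 to 19624 regions, the most again in this pair, which joins the 2 long lists and there exceeded either class. The order of the classes depended on how the lists were brought to a common size. With full lists there were 9801 FOXD2-only (5.25%) and 4600 Control-only regions (2.46%) of 186853, whereas lists reduced to the same covered bases gave 1638 FOXD2-only (1.67%) and 8937 Control-only regions (9.09%) of 98361. That reduction left 50911 and 34896 peaks in the FOXD2 lists and 59868 and 85832 in the Control lists. Of the FOXD2-only regions at equal length, 5927 (71.4%) were also absent from both full Control lists, and of the Control-only regions 2709 (53.1%) were absent from both full FOXD2 lists. Both classes were mostly distal, as were other regions that were not common to the 4 lists. Promoter-near regions were 998 of the FOXD2-only class (12%) and 756 of the Control-only class (14.8%), against 48.0% of regions common to the 4 lists. The share was 9.53% to 12.1% among single-library regions. It was 14.7% to 19.1% among regions held by only 1 FOXD2 and 1 Control library.

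The strongest FOXD2-only regions, by the sum of their q-value ranks in the 2 FOXD2 lists, lay near TSPAN2, TMEM154, PADI2, SPINK9, HEBP2, IGFL4, KCNN3 and PRICKLE1. PADI2 encodes a peptidylarginine deiminase, KCNN3 a calcium-activated potassium channel and PRICKLE1 a planar cell polarity protein. The region near PADI2 (chr1:17125986-17131602) was 5617 bp long and reached summit folds of 9.83 and 12.4 in FOXD2 cells. The region inside IGFL4 (chr19:46064945-46074794) spanned 9850 bp, with summit folds of 7.29 and 11.8. Neither had a peak in the full Control lists. Of these 8 regions, those near TSPAN2 and PRICKLE1 did have a peak in the full list of Control replicate 1. Summit fold is the enrichment the authors' peak caller reported at a peak's highest point, and it is compared here only within a list.

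The strongest Control-only regions included 4 inside PCDH7, which encodes a protocadherin, 1 inside MPP7, which encodes a scaffold protein of cell junctions, and 1 at the WNT16 start. The other 2 (chr9:21679334-21679793 and chr9:21689198-21690073) had no protein-coding gene within 100 kb. The leading PCDH7 region (chr4:30801747-30805279) measured 3533 bp, with summit folds of 11.7 and 12.7 in Control cells. The region at WNT16 (chr7:121329053-121330826), which encodes a Wnt ligand, had summit folds of 9.43 and 13.4 in Control cells. None of the 8 had a peak in either full FOXD2 list.

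Regions acetylated in all 4 full lists numbered 34631, of which 15452 were promoter-near and 19179 distal. Their order by summit fold was compared as percentile ranks within each list, which do not depend on list length. Over all common regions, ranks were closest between libraries of the same group. Spearman's rho was 0.750 between the FOXD2 libraries and 0.720 between the Control libraries, against 0.590 to 0.700 across groups. These are correlations across regions of the same genome and carry no test. At distal regions rho fell to 0.614 for the FOXD2 pair and 0.538 for the Control pair, against 0.387 to 0.549 across groups. FOXD2 replicate 1 with Control replicate 2, at 0.549, was thus closer there than the Control pair. At promoter-near regions rho was 0.806 and 0.801 within groups.

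Both FOXD2 ranks lay at least 10 percentile points above both Control ranks at 3526 common regions (10.2%) and at least 10 points below at 3475 (10.0%). Ranks are centred alike in every list, so a near balance of the directions over all common regions follows from the ranking. Among promoter-near regions 1293 ranked higher (8.37%) and 1627 lower (10.5%), and among distal regions 2233 ranked higher (11.6%) and 1848 lower (9.64%). Median ranks of promoter-near regions were 65.5 and 68.4 in FOXD2 libraries and 68.8 and 68.9 in Control libraries, and those of distal regions, which overlap, 37.9 and 36.8 in FOXD2 libraries and 37.2 and 36.8 in Control libraries. Split instead by H3K4me3, the directions were near equal, with 1501 higher and 1508 lower among regions with this mark in both of its lists and 1688 higher and 1746 lower among regions without it in either.

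**Figure D2:**
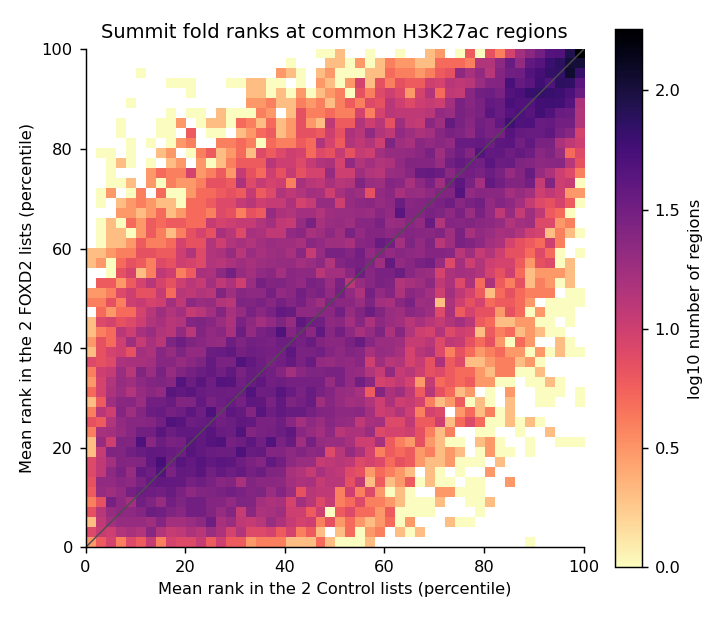
Mean percentile rank of summit fold in the 2 FOXD2 lists (vertical) against the 2 Control lists (horizontal) at 34631 common regions, in bins of 2 points, with the log10 number of regions as colour and the line of equal rank. Regions spread to both sides of the line, and 3526 had both FOXD2 ranks at least 10 points higher and 3475 at least 10 points lower.

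The largest rank gains were all distal and lay in or near RAB3B, ANKRD33B, RAP1B, DPF3, LEP, ABLIM3, SCARA5 and HSPG2. RAB3B and RAP1B encode small GTPases, ABLIM3 an actin-binding protein and HSPG2 the proteoglycan perlecan. The RAB3B region (chr1:51966459-51973731) ranked at the 96.4 and 93.8 percentile in FOXD2 cells, against 11.0 and 10.7 in Control cells. Its peaks covered 7.27 and 5.67 kb in FOXD2 cells and 0.934 and 1.14 kb in Control cells, so height and width moved together there. At the region near LEP (chr7:128259102-128264038), the gene of the hormone leptin, the ranks were 93.0 and 93.6 in FOXD2 cells and 11.4 and 23.5 in Control cells.

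The largest rank losses lay at STK39, CDCA2, DSC3, PPP3CA, DEGS1, VMP1, CAV1 and a region of chromosome 2 without a protein-coding gene within 100 kb, and 4 of the 8 were promoter-near. CAV1 encodes caveolin-1, the coat protein of caveolae, and DSC3 a desmosomal cadherin. The CAV1 promoter region (chr7:116521316-116529173) ranked at the 6.79 and 33.6 percentile in FOXD2 cells, against 99.2 and 99.1 in Control cells. It thus lay near the top of both Control lists and in the lower part of both FOXD2 lists. Covered bases there were 1.81 and 1.97 kb in FOXD2 cells and 6.94 and 7.86 kb in Control cells. At DSC3 (chr18:31040473-31044375) the ranks were 10.0 and 6.78 in FOXD2 cells and 77.6 and 78.4 in Control cells. The region inside STK39 (chr2:168194904-168198449), which encodes a kinase of ion transport, ranked at 0.995 and 0.325 in FOXD2 cells and at 89.4 and 87.9 in Control cells. At the CDCA2 promoter, by contrast, covered bases were 0.647 and 0.689 kb in FOXD2 cells and 0.491 and 0.691 kb in Control cells, which overlap, while the ranks were 11.7 and 12.4 in FOXD2 cells and 81.3 and 89.2 in Control cells.

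Within the same common regions, FOXD2 lists held fewer, longer peaks. A common region contained 1.31 and 1.31 peaks on average in FOXD2 cells, against 1.54 and 1.47 in Control cells. Both FOXD2 lists covered more bases than both Control lists at 10197 common regions (29.4%), and both covered fewer at 2460 (7.10%). These counts come from lists of unequal length. Common regions held 81.2 and 98.9 Mb of peaks in FOXD2 cells and 81.0 and 68.8 Mb in Control cells.

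Acetylation was then summed over protein-coding genes, as the bases covered within the gene and 5 kb on either side at equal list length. A gene was called gained if both FOXD2 libraries had at least 1.5 times, and at least 2 kb more than, both Control libraries, and lost in the converse case. Of 14227 genes with a mean of at least 1 kb, 901 gained (6.33%) and 53 lost acetylation (0.373%). The median log2 ratio over all tested genes was 0.27, on the scale of log2 of kb plus 1, and the FOXD2 lists also held more covered bases in total at this setting. With covered bases scaled to equal list totals, 342 genes gained (2.40%) and 126 lost (0.884%), with a median of -0.02. With lists reduced to equal covered bases, 300 gained (2.23%) and 324 lost (2.41%), with a median of 0.06. Peaks with −log10 q of 5 or more, then reduced to equal length, gave 808 gains (6.12%) and 63 losses (0.478%). Full lists gave 856 gains (5.84%) and 37 losses (0.252%). In the 13419 genes tested under all 4 scalings, 140 were called gained (1.04%) and 28 lost (0.209%) in each of them. These 4 were equal list length, full lists, equal covered bases and equal list totals. The balance of gains and losses thus changed with the scaling. Those of the 4 under which a named gene lost its call are given beside it. The setting with −log10 q of 5 or more is not part of these remarks. Under it 10 named genes lost their call and 1 changed sign.

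More or longer peaks in one group follow from the gene calls, which rest on the same covered bases. At gained genes the difference lay in number of peaks as well as in peak width. The median gained gene had 8 and 7 peaks in FOXD2 libraries, against 4 in both Control libraries, and the mean peak held 1.36 and 1.38 kb of these genes in FOXD2 cells and 0.998 and 0.950 kb in Control cells. Lost genes had a median of 3 and 2 peaks in FOXD2 libraries, against 6 and 7 in Control libraries. Tested genes without a call had a median of 3 peaks in every library. Their mean peak held 1.34 and 1.75 kb in FOXD2 cells and 1.36 and 1.12 kb in Control cells, which overlap. Gained genes were long, with a median span of 78.2 kb, against 47.5 kb for lost genes and 27.3 kb for genes without a call. The gap of 2 kb is asked of bases summed over the span, so the rule favours long genes. Its part in these lengths was not tested. Promoter bases are part of the span that made the call. Within 2 kb of the starts of the 740 gained genes with an annotated start, the median gene had 2.32 and 2.25 kb covered in FOXD2 libraries, against 1.5 and 1.57 kb in Control libraries. The median lost gene had 0.696 and 0.768 kb in FOXD2 libraries and 1.68 and 1.70 kb in Control libraries. Genes without a call did not overlap there either, at 1.93 and 2.03 kb in FOXD2 libraries and 1.78 and 1.77 kb in Control libraries.

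The 12 genes with the largest gains were SHB, ASAP2, ABTB2, SPIDR, GAS7, PACSIN2, RREB1, VSNL1, TRAK1, ZFHX3, AGAP1 and COBL. ASAP2 and AGAP1 are GTPase-activating proteins for Arf, PACSIN2 shapes membranes in endocytosis, TRAK1 links mitochondria to motors, and GAS7 and COBL act on actin. SHB is a signalling adaptor, RREB1 and ZFHX3 are zinc finger transcription factors, and VSNL1 encodes the calcium sensor visinin-like 1. SHB (chr9:37915898-38069227) had 97.8 and 119.5 kb covered in FOXD2 cells, against 51.7 and 52.7 kb in Control cells, with 35 and 31 peaks in FOXD2 libraries and 35 and 34 in Control libraries. The excess at SHB thus lay in the width of peaks and not in their number, and its call was lost with equal list totals. RREB1 (chr6:7107743-7251980) had 45.2 and 50.8 kb in FOXD2 cells, against 12.6 and 12.7 kb in Control cells. VSNL1 (chr2:17539972-17657018) had 53.2 and 41.7 kb in FOXD2 cells, against 6.95 and 9.80 kb in Control cells, a log2 ratio of 2.37 and the largest among the 12. Both kept their call under all 4 scalings. ASAP2 had 62.9 and 72.7 kb in FOXD2 cells, against 22.8 and 20.4 kb in Control cells, and PACSIN2 had 58.3 and 64.6 kb in FOXD2 cells, against 25.7 and 24.3 kb in Control cells. That the groups do not overlap at these 12 genes follows from the rule that chose them. ABTB2 lost its call with equal list totals, TRAK1 with equal totals and with equal covered bases, and ZFHX3 and AGAP1 with full lists.

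The 12 largest losses were at PCDH7, PDE4B, CYP24A1, TEX14, IRS1, INPP4B, IGBP1C, SYBU, SAMD13, LOC124909439, SLC35D2 and CAV1. PDE4B breaks down cyclic AMP, IRS1 couples the insulin receptor to its effectors and INPP4B is a phosphoinositide phosphatase. CYP24A1 encodes the enzyme that inactivates vitamin D. PCDH7 (chr4:30720369-31146800) had 21.8 and 3.77 kb in FOXD2 cells, against 121.1 and 123.5 kb in Control cells, in 25 and 2 peaks in FOXD2 libraries and 91 and 105 in Control libraries. This was the largest difference among the 24 genes, and the Control acetylation was spread over many separate peaks. PDE4B (chr1:65792510-66374579) had 13.3 and 0.386 kb in FOXD2 cells, against 33.9 and 37.6 kb in Control cells. CYP24A1 (chr20:54143538-54173986) had 5.95 and 0 kb in FOXD2 cells, against 20.4 and 22.8 kb in Control cells. At all 3 genes FOXD2 replicate 1 had more acetylation than FOXD2 replicate 2. IRS1 had 11.3 and 8.80 kb in FOXD2 cells, against 19.2 and 25 kb in Control cells. CAV1 had 1.81 and 1.97 kb in FOXD2 cells, against 7.75 and 8.86 kb in Control cells. TEX14 and IGBP1C overlap on chromosome 17 and share part of their covered bases, so they are not independent. Of the 12, only SLC35D2 lost its call under a scaling, that of equal covered bases.

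**Figure D3:**
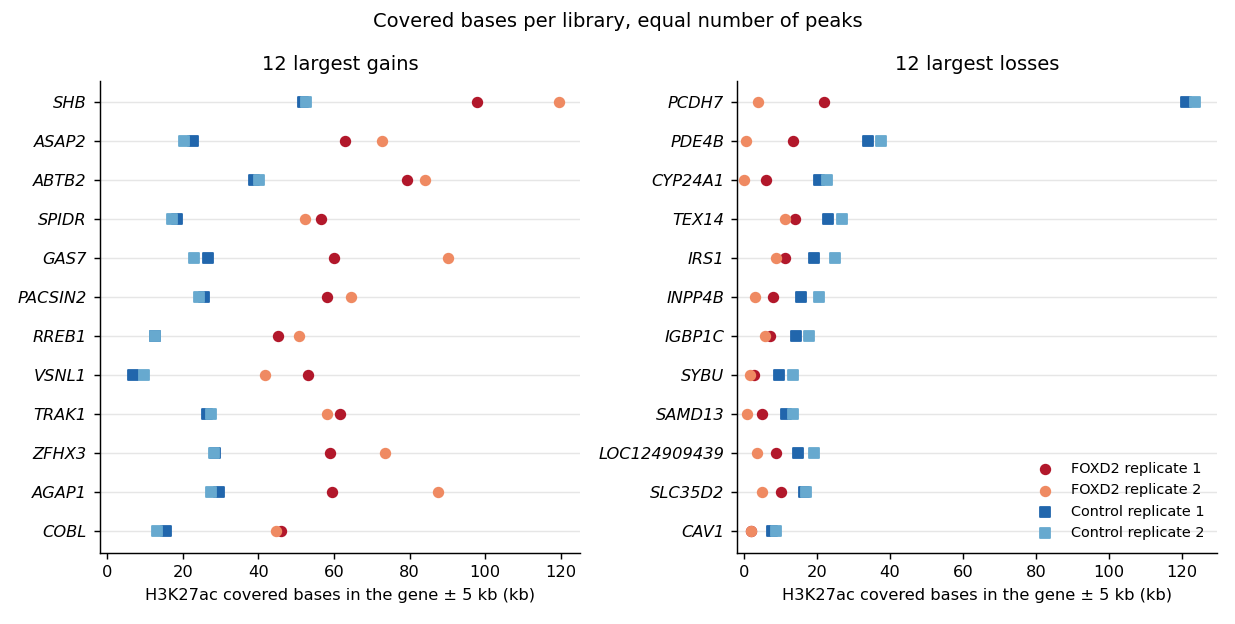
H3K27ac covered bases (kb) within the gene and 5 kb on either side, for the 12 largest gains (left) and 12 largest losses (right), with 1 point per library (circles FOXD2, squares Control) at 85122 peaks per list. The groups are apart at every gene by the rule that chose them, and the widest gap is at PCDH7, with 21.8 and 3.77 kb in FOXD2 cells against 121.1 and 123.5 kb in Control cells.

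The peaks themselves took different shapes at these genes. Over SMAD7, which encodes the inhibitory Smad of TGF-β signalling, the FOXD2 libraries had long peaks across the gene body, whereas the Control libraries had a few short ones. Its covered bases were 25.1 and 27.8 kb in FOXD2 cells, against 4.21 and 3.51 kb in Control cells. FOXQ1, a forkhead factor and reported Wnt target in colorectal cancer, had 5.11 and 6.33 kb in FOXD2 cells, against 0 and 0.473 kb in Control cells. At CAV1 the peak over the start was present in all libraries and was shorter in FOXD2 cells.

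**Figure D4:**
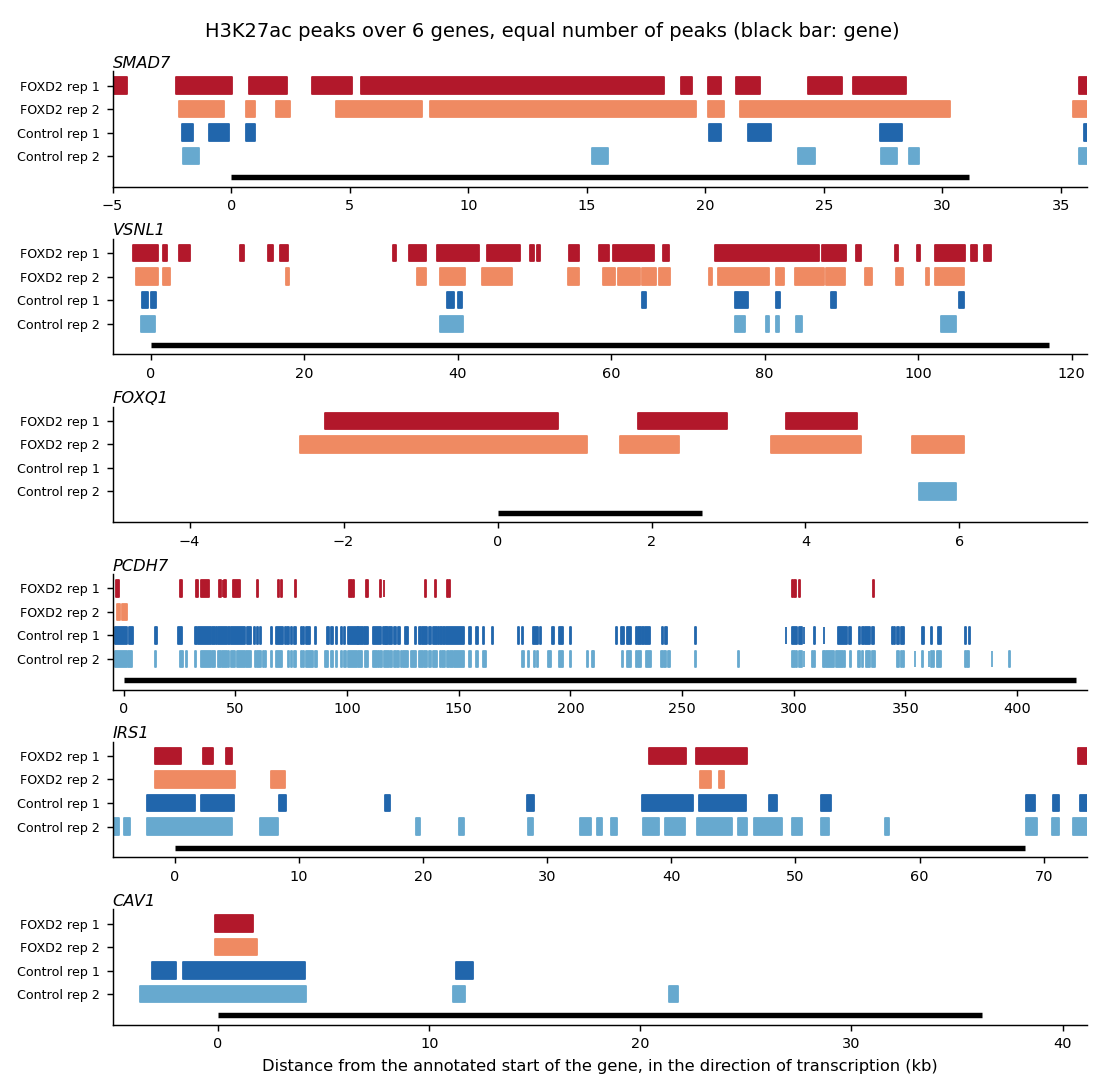
H3K27ac peaks (bars) over 6 genes in the 2 FOXD2 and 2 Control libraries at equal list length, by distance in kb from the gene's start in the direction of transcription, with the gene as a black bar. SMAD7, VSNL1 and FOXQ1 have more peaks and more covered bases in FOXD2 cells, and PCDH7, IRS1 and CAV1 in Control cells. SMAD7, for example, has 25.1 and 27.8 kb covered in FOXD2 cells against 4.21 and 3.51 kb in Control cells.

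The FOXD2 gene itself was not called. It had 2.32 and 6.82 kb in FOXD2 cells, against 0.822 and 3.31 kb in Control cells, which overlap, and without FOXD2 replicate 1 it would be called gained. Reads from the integrated coding sequence could map to this gene, so the value cannot be assigned to the gene's own locus. Its H3K4me1 covered 1.22 and 2.07 kb in FOXD2 cells and 1.79 and 0.844 kb in Control cells.

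Wnt targets had 4 gained genes and 1 lost gene among 17 tested, with a median log2 ratio of 0.37 beside 0.27 over all genes. That is 23.5% gained, beside 6.33% gained and 0.373% lost over all tested genes, the shares against which each list below is to be read. The gained members were ZNRF3, RNF43, AXIN2 and TNFRSF19. ZNRF3 and RNF43 are membrane ubiquitin ligases that remove Wnt receptors, and AXIN2 is a scaffold of the β-catenin destruction complex, so all 3 are negative regulators of the pathway. RNF43 had 52.6 and 36.9 kb in FOXD2 cells, against 14.5 and 15.5 kb in Control cells, and was called under all 4 scalings. ZNRF3 had 52.4 and 55.7 kb in FOXD2 cells, against 17.4 and 27.3 kb in Control cells. AXIN2 had 10.5 and 17.1 kb in FOXD2 cells, against 5.42 and 5.59 kb in Control cells. ZNRF3 lost its call with equal covered bases and equal totals, AXIN2 with full lists and TNFRSF19 with equal covered bases. The lost member was DKK1, with 0.502 and 0 kb in FOXD2 cells and 2.90 and 4.85 kb in Control cells, a call that was also lost with equal covered bases.

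Epithelial junction and keratin genes had 5 gained (22.7%, beside 6.33% of all tested genes) and 0 lost genes among 22 tested, with a median log2 ratio of 0.41. CDH1, which encodes E-cadherin, had 30.8 and 36.0 kb in FOXD2 cells, against 17.9 and 18.6 kb in Control cells. KRT7, a keratin of simple epithelia, had 27.2 and 29.3 kb in FOXD2 cells, against 13.2 and 15.7 kb in Control cells. CLDN2 and OCLN, of tight junctions, gained as well, CLDN2 with 10.1 and 11.2 kb in FOXD2 cells and 0.421 and 3.18 kb in Control cells. CLDN3 was the fifth and the only one called under all 4 scalings, and CDH1 was called at equal list length alone. KRT7 lost its call with equal totals, CLDN2 with equal covered bases and OCLN with both. Among 17 mesenchymal and EMT genes tested, 1 gained and 1 lost, with a median of -0.14. The gained gene was ZEB1, a repressor of E-cadherin, with 6.78 and 5.16 kb in FOXD2 cells and 0.447 and 1.71 kb in Control cells, a call lost with equal covered bases, and the lost gene was PCDH7.

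In the TGF-β and BMP pathway, 2 genes gained (9.52%, near the 6.33% of all tested genes) and 1 lost among 21 tested (median 0.21). These were SMAD7 and the coreceptor gene TGFBR3, and ID2, a BMP target that inhibits basic helix-loop-helix factors. ID2 had 4.44 and 2.65 kb in FOXD2 cells, against 6.69 and 7.78 kb in Control cells. SMAD7 and ID2 were called under all 4 scalings, and TGFBR3 lost its call with equal covered bases and equal totals. Of 24 forkhead genes, FOXN3, FOXQ1 and FOXO1 gained and 0 lost (median 0.34), and FOXQ1 alone was called under all 4 scalings. FOXO1 had 4.58 and 4.55 kb in FOXD2 cells, against 1.49 and 2.46 kb in Control cells. FOXO1 was called at equal list length alone, and FOXN3 lost its call with full lists and with equal covered bases. Of 25 cell cycle genes, CCND3 and E2F3 gained and CDKN1B, which encodes the cyclin-dependent kinase inhibitor p27, lost (median 0.33). CDKN1B had 4.77 and 4.74 kb in FOXD2 cells, against 7.78 and 8.47 kb in Control cells, and was called under all 4 scalings. CCND3 was called at equal list length alone, and E2F3 lost its call with equal covered bases. The forkhead and cell cycle lists had 12.5% and 8% gained, beside 6.33% of all tested genes. Among 26 actin and focal adhesion genes, COBL and PTK2 were among those that gained and 0 lost, with the highest median of the 19 lists at 0.48. PTK2, which encodes focal adhesion kinase, had 18.9 and 14.3 kb in FOXD2 cells, against 3.79 and 5.41 kb in Control cells, a call lost with equal covered bases.

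KMT2C, which encodes the H3K4 methyltransferase MLL3, was the only gained gene of 17 in the H3K4 methyltransferase complexes, with 2.94 and 2.98 kb in FOXD2 cells, whereas both Control libraries were listed at 0. Its call was lost with equal covered bases, and also without either FOXD2 replicate, because its mean then fell under the minimum of 1 kb. HDAC1, a deacetylase, was the only gained gene of 27 acetylation writers, erasers and readers, with 7.53 and 10.7 kb in FOXD2 cells and 4.41 and 4.79 kb in Control cells, and it was called at equal list length alone. These shares, 5.88% and 3.70%, were near the 6.33% of all tested genes. GDF15 was the only gained gene of 19 p53 targets, and SPRED2, an inhibitor of MAPK signalling, of 21 EGFR and MAPK feedback genes, and both lost their call with equal covered bases and with equal totals. At equal list length, no gene was called in either direction among 21 intestinal transcription factors, 12 intestinal differentiation genes, 19 YAP and AP-1 genes, 17 interferon and inflammatory genes or 24 ribosomal protein genes. With 6.33% of all tested genes gained, lists of these sizes hold few or no calls at that share. Their medians ran from 0.06 to 0.32. The rule asks for 2 kb and 1.5 times, so smaller differences in these lists are not covered by it.

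Markers of the cell type were checked on the full lists. Epithelial markers together had 101 and 120 kb in FOXD2 cells, against 83.2 and 76.7 kb in Control cells, and 6 of the 7 had a peak in all 4 libraries. Intestinal markers summed to 28.1 and 53.5 kb in FOXD2 cells and to 50.0 and 35.3 kb in Control cells, following list length. Markers of blood cells summed to between 9.73 and 21.3 kb, of fibroblasts and endothelium to between 30.0 and 68.7 kb and of neural cells to between 54.2 and 185 kb, and in each the 2 long lists were the highest. The defining genes PTPRC, CD3E and DCN had at most 0.373 kb in any library. At equal list length, beside 6.33% gained over all tested genes, no gene was called in the fuller lists of blood, fibroblast and endothelial, and neural genes, of 11, 8 and 8 tested.

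The H3K4me1 libraries, which had no part in defining the H3K27ac classes, separated them. An H3K4me1 peak lay in 63.5% and 66.2% of FOXD2-only H3K27ac regions in FOXD2 cells, against 47.8% and 43.4% in Control cells. At Control-only regions the shares were 26.5% and 25.4% in FOXD2 cells, against 36.6% and 32.1% in Control cells. The difference was 19.3 percentage points at FOXD2-only regions and -8.42 at Control-only regions, and the groups did not overlap at either. A large share of FOXD2-only regions therefore held H3K4me1 in Control cells too, where H3K27ac was not called at equal list length. In the full Control lists, 2356 of the 8302 FOXD2-only regions had an H3K27ac peak in replicate 1 and 34 in replicate 2. At common regions short of the 10-point rank margin, the shares were 76.3% and 75.7% in FOXD2 cells. In Control cells they were 78.6% and 74.7%, which overlap with those of FOXD2 cells. Regions that ranked higher had H3K4me1 in 87.1% and 87.2% in FOXD2 cells and 86.4% and 83.4% in Control cells, and regions that ranked lower in 71.3% and 70.7% in FOXD2 cells and 75.9% and 72.3% in Control cells. These values use the H3K4me1 lists at full length; at equal length of those lists the differences were 15.6 points at FOXD2-only and -11.4 points at Control-only regions.

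Over genes, the same direction was seen. With the H3K4me1 lists at equal length, H3K4me1 in both FOXD2 libraries exceeded both Control libraries at 772 of the 901 genes that gained H3K27ac (85.7%), against 35.0% of all tested genes. It was below both Control libraries at 39 of the 53 lost genes (73.6%), against 15.1% of all tested genes. The median gained gene had 15.5 and 16.3 kb of H3K4me1 in FOXD2 cells, against 9.76 and 8.32 kb in Control cells. The median lost gene had 7.86 and 7.20 kb in FOXD2 cells, against 14.1 and 11.9 kb in Control cells. All 12 of the largest gains and all 12 of the largest losses had H3K4me1 in the direction of their H3K27ac, without overlap of the groups. At PCDH7 H3K4me1 covered 48.2 and 41.8 kb in FOXD2 cells, against 275 and 260 kb in Control cells, and at VSNL1 82.4 and 101 kb in FOXD2 cells, against 27.2 and 30.8 kb in Control cells. Exceptions were found among smaller differences: H3K4me1 overlapped between groups at GDF15, ID2 and CDKN1B. Called genes carried more H3K4me1 than uncalled ones in every library, and the part of this in the contrast with all tested genes was not tested.

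**Figure D5:**
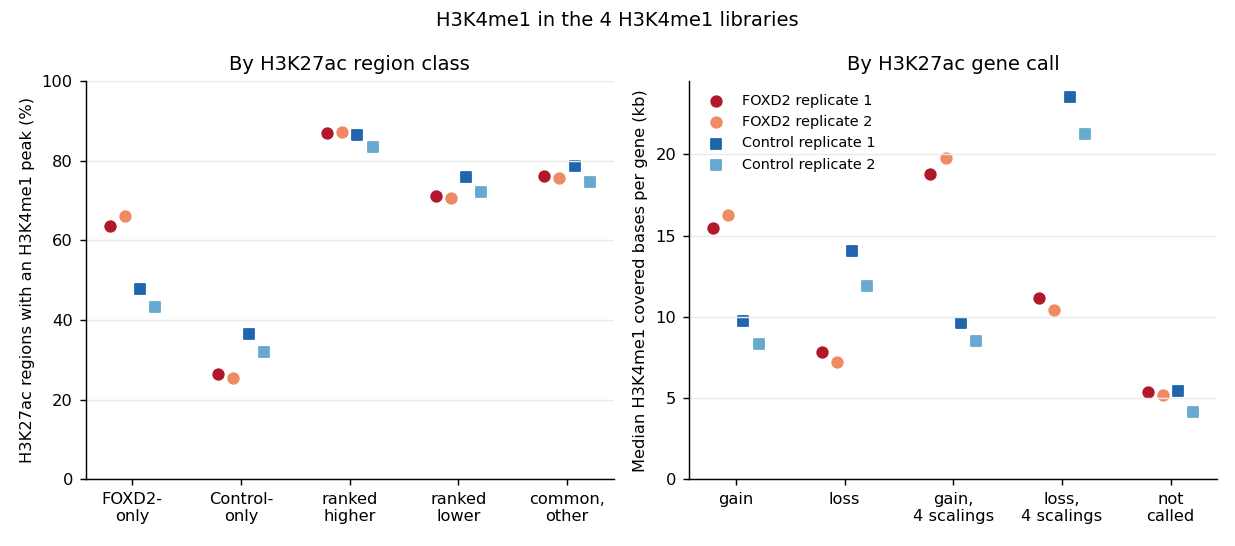
H3K4me1 in its own 2 FOXD2 (circles) and 2 Control (squares) libraries: percent of H3K27ac regions with an H3K4me1 peak, by region class (left), and median H3K4me1 covered bases per gene in kb, by H3K27ac gene call (right). FOXD2 points lie above Control points at FOXD2-only regions (63.5% and 66.2% against 47.8% and 43.4%) and at gained genes, and below them at Control-only regions and lost genes.

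Peaks of the methyltransferase MLL4 and of H3K4me3 were sparse in both classes. MLL4 peaks lay in 5.93% and 3.08% of FOXD2-only regions in FOXD2 cells, against 2.81% and 2.85% in Control cells, and in 3.25% and 0.196% of Control-only regions in FOXD2 cells, against 2.27% and 2.21% in Control cells. At common regions the MLL4 share was 35.1% and 9.51% in FOXD2 libraries and 31.5% and 27.4% in Control libraries, so the 2 FOXD2 libraries differed more from each other than the Control libraries did. H3K4me3, with 1 library per group and thus no replicate, was present at 6.28% of FOXD2-only regions in FOXD2 cells and 5.36% in Control cells, and at 51.2% of common regions in FOXD2 cells and 53.9% in Control cells. Peaks of tagged FOXD2, from cells given a FOXD2 plasmid, overlapped between 4.28% and 8.29% of FOXD2-only regions and between 3.04% and 4.70% of Control-only regions over the 4 tag libraries, against 13.4% to 24.5% of common regions. The median width was 1062 bp for FOXD2-only and 849 bp for Control-only regions and 2762 bp for common regions.

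The difference was spread over the chromosomes. At equal list length, the share of covered bases on a chromosome did not overlap between the groups at chromosome 1, with 10.4% and 10.2% in FOXD2 cells and 9.95% and 10.0% in Control cells, or at chromosome 14, with 3.29% and 3.28% in FOXD2 cells and 3.33% and 3.34% in Control cells. All other chromosomes overlapped. On the X chromosome the shares were 0.976% and 0.732% in FOXD2 cells and 0.512% and 0.90% in Control cells.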

How the data were processed

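H3K27ac chromatin immunoprecipitation libraries (2 from FOXD2 and 2 from Control HCT116 cells) were compared from the authors' deposited peak lists, 1 per library. The submitters' processing notes name MACS2 2.2.7.1, bedtools, Bowtie2 2.3.4.1, cutadapt 3.4, Picard and the build hg38, without their roles. In each deposited list the fold enrichment at the summit is a ratio, and p-values and q-values are given as −log10; the largest q was 0.01. The background library and the read depth are not given in the sources used here, so no counting intervals are given. Peak names in the files carry replicate numbers 2 and 3 where the labels give 1 and 2. Such list-based values register only what passed the authors' threshold, and a long weak peak counts as much as a long strong one.

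Only peaks of the autosomes and X entered, and 9 to 16 per list were dropped. Lists were compared in full, at equal list length (the 85122 peaks of highest −log10 q) and in other settings. Regions were merged at a gap of 0 bp, and a list held a region through at least 1 bp. Genes and starts came from RefSeq tables (GRCh38.p14, the same build): 19974 protein-coding genes, 27195 genes with a start, and both ends of the span for 10956 genes without one. A region took the name of its closest protein-coding gene, if within 100 kb. Two-sided exact permutation tests compared single values over the 4 libraries and cannot go below 0.33.

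Named genes were FOXD2, the 12 largest gains and 12 largest losses by the gap between the nearest libraries, the 8 strongest regions of each class, the 8 largest rank changes in each direction and up to 4 called members of each of 19 gene lists; other names are marked as chosen after their values were seen or as completing a count. Not every called list member is reported here. The members, lists and tests were chosen with earlier results of these data known. Alternatives were other list sizes, thresholds, overlaps, merging gaps, gene windows, each library left out and replicate blocks. Steps were tested on simulated lists with planted gains and losses. Same-numbered libraries deviated from their group means in opposite directions over genes (r = -0.57). FOXD2 replicate 2 and Control replicate 1 had the more covered bases within their groups. This r therefore cannot show whether same-numbered libraries shared a culture or batch, and libraries were not treated as paired. Python 3.11.15, numpy 2.4.6, pandas 2.3.3, scipy 1.17.1 and matplotlib 3.10.9 were used.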

Additional observations from a re-analysis of the deposited data

How the results depend on the processing

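Depth is unknown and each group has 2 libraries, so no single comparison can pass 0.05. The share of bases in wide peaks stayed higher in FOXD2 cells in the alternatives run (by 7.62 to 15.6 points, the highest with equal covered bases), as did covered bases (by 0.82 Mb without FOXD2 replicate 2, and up to 60.4 Mb). Region and gene counts did not. FOXD2-only regions numbered 1638 with equal covered bases, 4197 with −log10 q of 5 or more and 12595 to 29639 with 1 library left out, and Control-only regions 8937, 2543 and 8086 to 21173; their ratio was 0.183 with equal covered bases and 0.595 to 3.13 with 1 library left out, where the group of 1 library gains regions by construction. Regions ranked higher numbered 1640 at 20 points, 1655 of 16429 with 1 peak in every list and 6510 to 7080 with 1 library left out, and regions ranked lower 1445, 1629 and 6435 to 7127. Gained genes numbered 300 with equal covered bases, 238 at a ratio of 2 and a gap of 4 kb, and, in settings chosen after seeing the data, 342 with equal totals and 140 in all 4 scalings; lost genes numbered 324, 9, 126 and 28. Leaving out 1 library gave 1422 to 2742 gained and 121 to 427 lost genes. Over the libraries left out, the differences, FOXD2 minus Control, ran from -22791.5 to 33094.5 for peaks, from -0.273 to 0.146 for median summit fold (0.121 at equal list length), from -3.48 to 2.57 points for the promoter-near share of bases and from -3.98 to 0.613 points for that of peaks. Of 336 checks of 48 called named genes under the 7 settings that could end a call, 237 kept it, 97 lost it and 2 changed sign, E2F3 with −log10 q of 5 or more (-0.0505 kb) and CDKN1B with spans extended by 50 kb (0.773 kb). The 16 named common regions kept their direction and margin when ranked by −log10 q; leaving out a library cannot narrow their margin. Whether replicate numbers pair the libraries is not known. With libraries paired by number (the replicate block), 1057 genes gained and 62 lost, and 4571 regions ranked higher and 4537 lower. With the pairing crossed, chosen after seeing the data, 1645 genes gained and 120 lost, and 5139 regions ranked higher and 5134 lower.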
